A study of Mus musculus with 4 samples.

Results

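MP bipolar cells are the retinal bipolar cells of a transgenic mouse line called MP, in which some bipolar and some amacrine cells express the cyan fluorescent protein CFP. They were taken here as the 2 samples titled as MP-positive bipolars, of 4 samples in all. The retinas came from mice of a mixed C57Bl6 x CD1 background at postnatal day 6, bred from transgenic fathers and mothers without the transgene, and were dissociated with papain. MP bipolar cells were CFP+ and VC1.1-, collected by flow cytometry after VC1.1+ cells had been held back on a magnetic column, and the other 2 samples were MP amacrine cells, collected as CFP+ and VC1.1+. The antibody VC1.1 stains amacrine but not bipolar cells. Each sample held about 1000 cells, the 2 replicates of a group came from different litters, and the RNA was amplified in 2 rounds before hybridisation to 1 Affymetrix array per sample. Both groups thus carried the transgene, and the labels name no treatment. The labels do not name the promoter that drives it, so which bipolar cells it marks is known here only from what they express. The question asked of these arrays was what the sorted population expresses, with the amacrine arrays as the level to read it against.

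Bipolar cells connect photoreceptors to the inner retina. Their dendrites receive glutamate from cones or rods, their axons end in a fixed layer of the inner plexiform layer, and they release glutamate there from ribbon synapses onto amacrine and ganglion cells. OFF cone bipolar types answer glutamate through AMPA and kainate receptors, which are ion channels, while ON cone bipolar types and the rod bipolar cell use the metabotropic receptor mGluR6, which controls the channel TRPM1 through a G protein. Amacrine cells feed back onto bipolar axons through GABA and glycine receptors. The first postnatal week in the mouse is before eye opening, when bipolar cells are still adding axons and synapses.

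Expression was read as the deposited probe set intensity, on a linear scale. The array medians lay between 44.5 and 47.1. As the table carries no detection calls, a gene was called above background when its probe set exceeded, on both bipolar arrays, the 95th percentile of 83 probe sets of chemosensory receptor genes, which was 94.6 on bipolar replicate 1 and 78.3 on bipolar replicate 2. By this rule 8333 of 18193 named genes, 45.8%, were above background in MP bipolar cells, and another 946 exceeded the ceiling on 1 bipolar array. Of the 8333 genes, 7747 were also above background on both amacrine arrays, and 172 on neither. Log2 intensities of the 2 bipolar arrays correlated at 0.982 across 45037 probe sets, which are not independent replicates. Between a bipolar and an amacrine array the correlation lay between 0.931 and 0.946. The typical gene differed between the 2 bipolar arrays by 0.19 on the log2 scale. By the same rule 8627 genes, 47.4%, were above background in MP amacrine cells. Amacrine replicate 2 stood apart in its actin control probe sets, whose signal near the 3-prime end exceeded that near the 5-prime end by 3.82 (log2), while the remaining arrays lay between 1.89 and 2.13.

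Differences are given as bipolar minus amacrine in log2(intensity + 16), so those of dim genes come out too small, and adjusted p values are from limma over 11583 tested genes. Of these genes, 801 (6.92%) were higher in MP bipolar cells and 758 (6.54%) were higher in MP amacrine cells at an adjusted p under 0.05. The calls counted for each gene list below are to be read against these shares. Counts of members above background are to be read against 45.8%. The median difference of all tested genes was 0.03. Without bipolar replicate 1 the number higher in bipolar cells was 419, and without bipolar replicate 2 it was 313, with 494 higher in amacrine cells. Without amacrine replicate 2 the number higher in amacrine cells was 420. A signal that stood at least 4 times above the amacrine level, taking the lower bipolar and the higher amacrine array with both raised to the background ceiling, was found for 109 genes (0.599%). Hmgn5 at 3.96 times and Fn1 at 3.97 times lay just outside that limit, and Chst1 at 4.02 times and Mfsd4a at 4.10 times just inside. In RNA from sorted cells, fewer cells that express a gene and less RNA of it per cell cannot be told apart. Where groups are said below to be separated or not to overlap, this describes 2 against 2 arrays. The share of all genes without overlap was not counted.

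The brightest probe sets of the bipolar arrays were mostly those of genes that growing cells in general use. These genes were chosen by their intensities, so the values describe the profile, and an intensity also depends on how well a probe set binds, so ranks compare genes only roughly. Tuba1a, an alpha-tubulin of young neurons, read 7336 and 7305 on the bipolar arrays and 8097 and 6832 on the amacrine arrays. The chromatin protein Hmgn1, the bicarbonate transporter Slc4a8, the microtubule end-binding protein Mapre2, the respiratory chain subunit Uqcrb, the translation factor Eif4g2 and Bex1 followed, and 12 of the top 100 genes encoded ribosomal proteins. The probe sets of Tuba1a, Hmgn1, Hspa8, Nrep, Morf4l2, Ddx17 and Mdh1, like those of Tacr3 and Hs3st2 below, can match several transcripts by their design, so their signal may be shared with related genes. These genes were bright in amacrine cells too.

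Among the 20 brightest named genes, 4 were higher in MP bipolar cells. Slit2, a secreted guidance ligand of the Robo receptors and 11th by intensity, read 6155 and 6313 on the bipolar arrays and 1532 and 1749 on the amacrine arrays, a difference of 1.92 (SE 0.11, adjusted p = 3.56e-05). Pcp4, a small calmodulin-binding protein, read 5625 and 5535 on the bipolar arrays and 953 and 288 on the amacrine arrays, a difference of 3.37 (SE 0.45, adjusted p = 0.0018). For both genes the 2 bipolar arrays lay close together and far from the amacrine arrays, and the amacrine arrays of Pcp4 differed from each other by over 3 times. Fat4, a giant cadherin, was higher by 0.64 (adjusted p = 0.00354) and Mapre2 by 0.30 (adjusted p = 0.036), both bright in amacrine cells too. The other 16, among them the chaperone Hspa8, the splicing factor Srsf1, the fatty acid-binding protein Fabp5, Serbp1, the elongation factor Eef1a1 and Ywhab, did not pass the test. The call for Mapre2 was lost without bipolar replicate 1 or bipolar replicate 2 (adjusted p = 0.137 and 0.408). Those for Mapre2, Fat4 and Pcp4 were lost when dim probe sets were kept (adjusted p = 0.177, 0.0559 and 0.0532). Mapre2 also missed the threshold with the replicate number as a block, with cyclic loess scaling, with quantile scaling and without the variance trend (adjusted p = 0.0563, 0.177, 0.0576 and 0.39). Fat4 also missed the threshold without the variance trend (adjusted p = 0.0842).

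The sorted population is described first by 7 bipolar marker genes. They were picked with earlier results of these arrays known, so their values and calls cannot test what the cells are. All 7 were above background on both bipolar arrays and all 7 passed the test as higher in bipolar cells, and 6 of them stood at least 4 times above the amacrine level. Pcdh17, a protocadherin adhesion protein known from an OFF bipolar type, read 4748 and 5009.8 on the bipolar arrays and 164 and 76.9 on the amacrine arrays, a difference of 5.24 (SE 0.31, adjusted p = 3.32e-05). Tacr3, the neurokinin receptor found on OFF bipolar cells, read 3638 and 4083 on the bipolar arrays and 145 and 94.5 on the amacrine arrays (4.86, SE 0.24, adjusted p = 1.85e-05). Fezf2, a zinc finger transcription factor, read 1605 and 1759.8 on the bipolar arrays and 38.9 and 24.1 on the amacrine arrays (5.18, SE 0.24, adjusted p = 1.7e-05). In each of these the groups were separated by more than an order of magnitude, and Fezf2 lay below the background ceiling on both amacrine arrays.

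Cabp5, a calcium-binding protein of bipolar cells, read 3251 and 3428 on the bipolar arrays and 259 and 29.4 on the amacrine arrays (4.91, SE 0.69, adjusted p = 0.00238). Its amacrine arrays differed widely from each other. Zfhx4, a large homeodomain and zinc finger protein, read 2962 and 2585 on the bipolar arrays and 80.1 and 118 on the amacrine arrays (4.61, SE 0.24, adjusted p = 2.19e-05). Cacna2d1, an accessory subunit of voltage-gated calcium channels, read 2467 and 2948 on the bipolar arrays and 153 and 51.1 on the amacrine arrays (4.67, SE 0.40, adjusted p = 0.000199). Otx2, the homeodomain factor needed to make photoreceptors and bipolar cells, was the exception in size, at 3718 and 3848 on the bipolar arrays and 1523 and 1646 on the amacrine arrays (1.25, SE 0.12, adjusted p = 0.000382). It was bright on the amacrine arrays, where the rod arrestin gene Sag, carried by photoreceptors that also use Otx2, was bright as well, and the part of those cells in the amacrine Otx2 signal was not tested. The call for Cabp5 was lost when dim probe sets were kept (adjusted p = 0.0605).

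**Figure D1:**
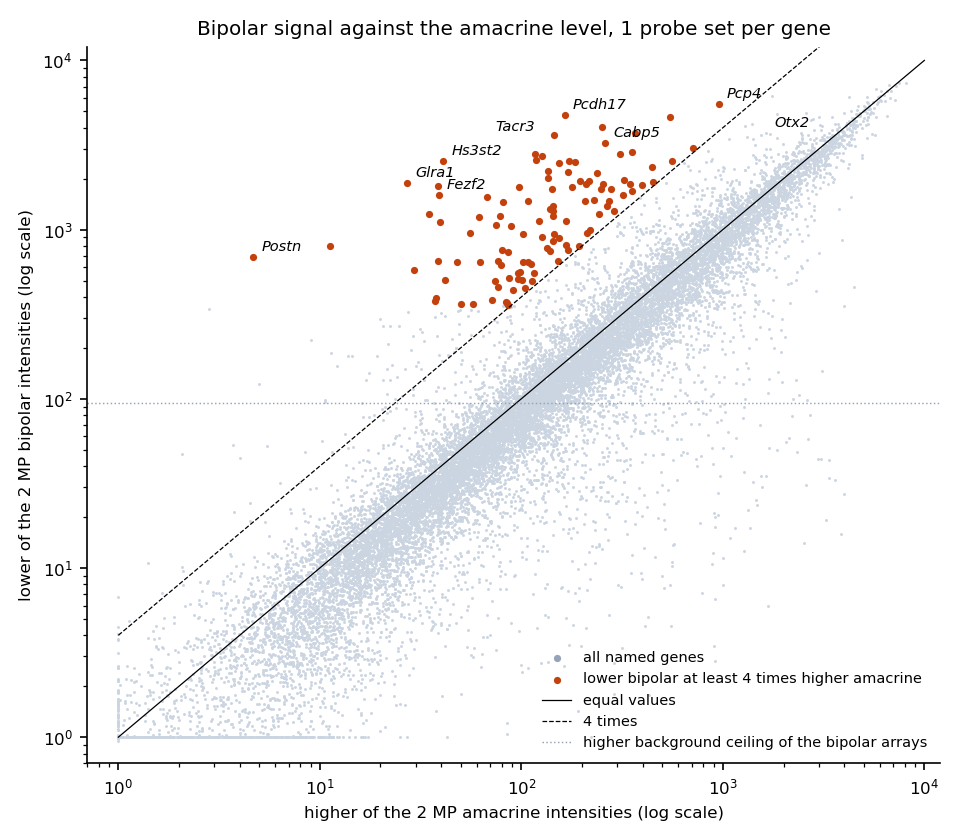
Each of the 18193 named genes is placed by the higher of its 2 MP amacrine intensities (horizontal axis, log scale) and the lower of its 2 MP bipolar intensities (vertical axis, log scale), 1 probe set per gene, with equal values on the solid line and a ratio of 4 on the dashed line. The 109 genes at least 4 times above the amacrine level, drawn in orange, lie above the dashed line, a rule applied after dim values were raised to each array's background ceiling, so that some dim grey points lie above it too, with Pcdh17, Tacr3 and Cabp5 among the brightest and Otx2 between the lines.

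Stretches upstream of 4 of these marker genes are shown because OTX2 and its relative CRX bind DNA with the core TAATCC, and such letters can be looked for next to a gene that is bright where Otx2 is bright. Each sequence holds the 250 bases before an annotated transcription start, 5′ to 3′ on the gene's own strand, from RefSeq on build GRCm38.p6. Capitals mark TAATCC or its reverse complement GGATTA, and TAATTA, a palindrome bound by many homeodomains. The windows are those of Cabp5 (chr7:13397905-13398154, plus strand), of 1 of the 4 starts of Otx2 (chr14:48665110-48665359, minus strand), of Pcdh17 (chr14:84443313-84443562, plus strand) and of Tacr3 (chr3:134828757-134829006, plus strand).
Cabp5: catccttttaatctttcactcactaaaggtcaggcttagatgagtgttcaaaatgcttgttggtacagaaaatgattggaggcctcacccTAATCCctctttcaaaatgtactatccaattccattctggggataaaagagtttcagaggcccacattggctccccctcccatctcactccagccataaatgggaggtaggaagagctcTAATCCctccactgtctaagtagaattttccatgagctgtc
Otx2: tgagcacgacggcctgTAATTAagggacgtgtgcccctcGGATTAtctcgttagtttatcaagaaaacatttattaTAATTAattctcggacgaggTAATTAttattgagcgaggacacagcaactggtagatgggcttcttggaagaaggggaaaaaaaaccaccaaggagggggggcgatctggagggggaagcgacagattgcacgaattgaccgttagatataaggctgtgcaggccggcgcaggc
Pcdh17: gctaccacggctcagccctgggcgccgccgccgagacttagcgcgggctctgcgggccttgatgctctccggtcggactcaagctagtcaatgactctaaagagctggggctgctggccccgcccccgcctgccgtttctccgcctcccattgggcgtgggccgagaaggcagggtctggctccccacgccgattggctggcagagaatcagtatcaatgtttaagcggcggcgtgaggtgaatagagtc
Tacr3: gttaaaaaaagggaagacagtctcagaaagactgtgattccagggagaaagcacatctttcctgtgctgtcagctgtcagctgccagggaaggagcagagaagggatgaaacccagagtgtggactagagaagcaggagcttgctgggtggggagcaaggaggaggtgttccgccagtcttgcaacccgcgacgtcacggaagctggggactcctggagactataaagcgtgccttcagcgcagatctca

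The Cabp5 window held TAATCC 2 times, the first 160 bases before the start. The Otx2 window held GGATTA 1 time, 211 bases before the start, and TAATTA 3 times. The windows of the remaining Otx2 starts held neither TAATCC nor GGATTA. Neither core was in the windows of Pcdh17 and Tacr3, although both genes were bright, and the Tacr3 window held 2 copies of the E-box CANNTG. Windows were matched for 6 of the 7 markers, Zfhx4 being the one not matched, and TAATCC or GGATTA was in 2 of their 9 windows (22.2%), against 6.25% of all 32851 windows of this length. Among the 20 brightest genes at least 4 times above the amacrine level, 18 were matched. Of their 30 windows 1, that of Cabp5, held TAATCC or GGATTA (3.33%). None held TAATTA, which was in 4.84% of all windows and in 2 of the 9 marker windows (22.2%), both of Otx2. The E-box CANNTG was in 40% of those 30 windows and in 66.2% of all windows. In windows of genes on the array the shares were 5.5% for TAATCC or GGATTA, 3.21% for TAATTA and 61.2% for CANNTG. These counts describe letters in a short window and not binding.

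Transcription factors of bipolar cells were broadly present. Of 19 listed factors with a probe set, 16 were above background, against 45.8% of all genes, and of 18 tested, 8 were higher in bipolar cells, where 6.92% of all genes were, and 3 were higher in amacrine cells, where 6.54% were. The median difference of the 18 was 0.18. Otx2, Fezf2 and Zfhx4, all among the 8 higher factors, also belong to the 7 markers picked with these arrays known. This list too is not independent of those markers. Vsx1, a homeodomain factor of cone bipolar cells, read 1133 and 898 on the bipolar arrays and 154 and 67.7 on the amacrine arrays (3.10, SE 0.35, adjusted p = 0.000747). The LIM homeodomain factors Lhx3, at 323 and 368, and Lhx4, at 403 and 303, were higher than on the amacrine arrays by 2.88 and 2.38 (adjusted p = 0.000137 and 0.00296). The bipolar arrays of all 3 factors lay above both amacrine arrays. The call for Lhx4 was lost when dim probe sets were kept (adjusted p = 0.0555).

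Zeb2, a zinc finger factor, read 1879 and 2242 on the bipolar arrays and 522 and 516 on the amacrine arrays (1.95, adjusted p = 0.00032), and Crx, the photoreceptor and bipolar factor related to Otx2, read 1877 and 1622 on the bipolar arrays and 1022 and 766 on the amacrine arrays (0.97, adjusted p = 0.0152). Several factors were bright in both groups and did not pass the test. These were Prdm8, a zinc finger regulator needed by some bipolar cells, at 5359.8 and 5465, and the bHLH factors Neurod4, at 4885 and 4822, and Neurod1, at 2836 and 2941, on the bipolar arrays. Isl1, a LIM factor of ON bipolar cells, ganglion cells and starburst amacrine cells, read 574 and 684 on the bipolar arrays and 1054 and 925 on the amacrine arrays (-0.64, adjusted p = 0.0835). The call for Crx was lost without bipolar replicate 1 or bipolar replicate 2 (adjusted p = 0.115 and 0.0536) and when dim probe sets were kept (adjusted p = 0.08).

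Some listed factors were lower in bipolar cells or below background there. Six3, Six6 and St18 were lower than in amacrine cells, with differences of -2.95, -1.51 and -3.96 (adjusted p = 7.23e-05, 0.000673 and 5.13e-05), and read 231 and 201, 744 and 695 and 162 and 100.2 on the bipolar arrays. The homeodomain gene Sebox read 215 and 246 and did not pass the test. Bhlhe23, a bHLH factor of rod bipolar cells, read 17.7 and 20.6, and Irx5 and Irx6, Iroquois factors of other cone bipolar types, read 56.7 and 62.3 and 58.5 and 55.9, all below background.

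Proteins shared by many bipolar types were high. Of 11 measured, 10 were above background, against 45.8% of all genes. Of 10 tested, 8 were higher in bipolar cells, against 6.92% of all tested genes, with a median difference of 3.44. Cabp5 and Cacna2d1, both among the 8, also belong to the 7 markers picked with these arrays known. The list is therefore not independent of those markers. Scgn, the calcium sensor secretagogin, read 1285 and 1398 on the bipolar arrays and 143 and 103 on the amacrine arrays (3.30, adjusted p = 8.85e-05). Car10, a carbonic anhydrase-related protein, read 2504 and 2631 on the bipolar arrays and 185 and 137 on the amacrine arrays (3.88, adjusted p = 2.89e-05), while its other bright probe set had the opposite sign. The related Car8 read 269 and 506 on the bipolar arrays and 22.3 and 11.2 on the amacrine arrays (3.58, adjusted p = 0.000263). Bipolar and amacrine arrays did not overlap in any of the 3, and how often this held among all genes was not counted. Samsn1 and Trnp1, known from expression surveys of bipolar cells, were higher by 3.08 and 2.05 (adjusted p = 0.00014 and 0.00289). The Purkinje and bipolar cell protein Pcp2 read 309 and 267 on the bipolar arrays and 228 and 54.2 on the amacrine arrays, with amacrine arrays far apart, and did not pass (1.21, adjusted p = 0.184). Gnao1, the G protein alpha subunit of ON bipolar cells that is common in neurons, read 249.8 and 228 on the bipolar arrays and 203 and 202 on the amacrine arrays (0.22, adjusted p = 0.604).

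Of the lists for single bipolar types, that for OFF type 1 had 5 of 5 measured members above background. All 5 tested members were higher in bipolar cells, with a median difference of 3.80. Of all genes, 45.8% were above background, and 6.92% of those tested were higher in bipolar cells. The summed intensity of the 5 genes was 11480.0 and 12200.0 on the bipolar arrays and 629 and 371 on the amacrine arrays. Type 1 cells are OFF cone bipolar cells whose axons end in the outermost part of the inner plexiform layer. Besides Pcdh17, Tacr3 and Vsx1, the list holds Pcdh10, a protocadherin reported to mark the partner subtype of the Pcdh17-positive cells, and the kainate receptor subunit Grik1. Pcdh10 read 1727 and 2054 on the bipolar arrays and 142 and 102 on the amacrine arrays, a difference of 3.80 (SE 0.24, adjusted p = 4.7e-05). Grik1 was dimmer, at 234 and 156 on the bipolar arrays and 24.2 and 30.0 on the amacrine arrays (2.27, SE 0.25, adjusted p = 0.000653). Pcdh17 and Pcdh10 mark different cells in the published account of type 1, and both were high in each of the 2 sorted samples. Pcdh17 and Tacr3 are also among the 7 markers picked with these arrays known, so the list is not independent of them.

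Markers of the other OFF types were mixed. For type 2, 3 of 4 were above background and 2 were higher, Tacr3, which is shared with type 1, and the kainate receptor partner Neto1, at 469 and 749 on the bipolar arrays and 88.6 and 167 on the amacrine arrays (2.14, adjusted p = 0.00429). Prdm8 was also above background but bright in both groups, at 5359.8 and 5465 on the bipolar and 4599.8 and 4694 on the amacrine arrays. The summed intensity of the 4 type 2 genes was 9525 and 10344 on the bipolar arrays and 4904 and 5016 on the amacrine arrays. Syt2, a synaptotagmin whose protein is a standard type 2 label, read 58.1 and 46.3 on the bipolar arrays and 70.9 and 60.7 on the amacrine arrays, below background in bipolar cells. For type 3, 2 of 6 were above background. Cabp5, shared with types 3 and 5 and rod bipolar cells, was the high one, and Prkar2b, the protein kinase A regulatory subunit that marks type 3B, was lower than in amacrine cells, at 377 and 248 on the bipolar arrays and 844 and 757 on the amacrine arrays (-1.34, adjusted p = 0.0108). Erbb4, at 3.07 and 2.48, and Nnat, at 41.4 and 21.4, were below background. For type 4, Col11a1 read 112 and 79.4, barely above the ceilings of 94.6 and 78.3, and Kcnip3 read 25 and 35.2. The call for Prkar2b was lost without bipolar replicate 2 (adjusted p = 0.0793) and those for Neto1 and Prkar2b when dim probe sets were kept (adjusted p = 0.0605 and 0.0642).

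ON cone bipolar markers were mostly at background. For type 5, 2 of 6 were above it, Cabp5 and Slitrk5, a transmembrane leucine-rich repeat protein, which read 232 and 126 on the bipolar arrays and 33.7 and 50.3 on the amacrine arrays (1.71, adjusted p = 0.00754). Htr3a, the serotonin-gated channel of type 5A, read 5.35 and 6.61. Kcng4 read 62 and 84.4, Sox6 57.4 and 70.6 and Lrrtm1 14.1 and 5.55, none above background on both arrays, although another Sox6 probe set was. For types 6 to 9, Cnmd read 1.44 and 1.1 and Cpne9 9.18 and 70.7, and Serpini1, a neuronal serpin, was above background but lower than in amacrine cells (-1.82, adjusted p = 0.00121), at 182 and 156. Each of these dim signals gives only a bound for its gene, and the mRNA of markers known from adult cells was not measured at other ages here. The call for Slitrk5 was lost when dim probe sets were kept (adjusted p = 0.0841).

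Rod bipolar markers were present at middling levels, with 5 of 7 above background, against 45.8% of all genes. Car8 and Rpa1, 2 of 6 tested, were higher in bipolar cells, against 6.92% of all tested genes. Prkca, the protein kinase C alpha gene that is the standard rod bipolar marker, read 394 and 418 on the bipolar arrays and 489.9 and 478 on the amacrine arrays, so its bipolar arrays lay below both amacrine arrays without passing the test (-0.25, adjusted p = 0.557). Rpa1, a single-stranded DNA-binding protein, read 1244 and 1348 on the bipolar arrays and 769.7 and 576 on the amacrine arrays (0.94, adjusted p = 0.0209). Vstm2b read 89.7 and 86.7 and was above the ceiling on 1 array. The summed intensity of the 7 genes was 2539 and 2893 on the bipolar arrays and 1869.7 and 1432 on the amacrine arrays. The call for Rpa1 was lost without bipolar replicate 1, bipolar replicate 2 or amacrine replicate 2 (adjusted p = 0.0843, 0.147 and 0.062) and when dim probe sets were kept (adjusted p = 0.081).

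**Figure D2:**
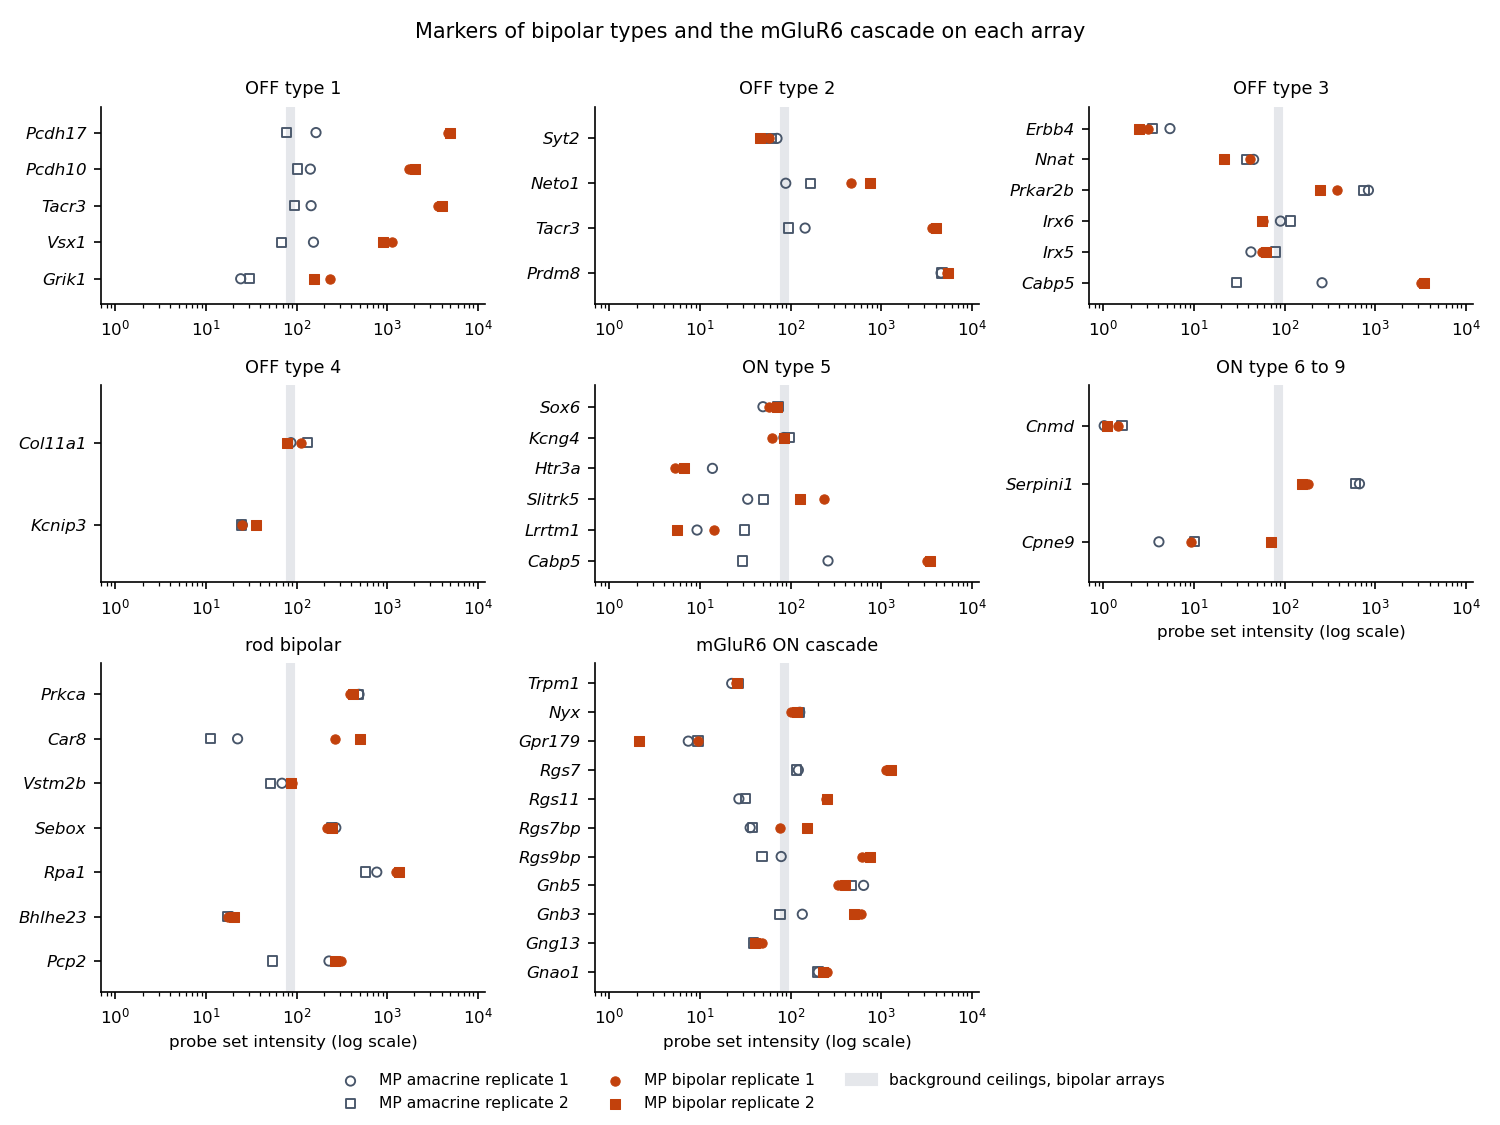
Each panel lists the markers of a bipolar type, or the mGluR6 cascade, with a symbol per array for the probe set intensity (log scale), filled for MP bipolar and open for MP amacrine samples (circles for replicate 1, squares for replicate 2), and a grey band for the background ceilings of the bipolar arrays. The 5 type 1 markers lie right of the band on both bipolar arrays, while Syt2, Erbb4, Htr3a, Cnmd and Trpm1 lie left of it.

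Genes of the mGluR6 cascade varied widely in level. Of 11 measured, 7 were above background, against 45.8% of all genes. Of 8 tested, 5 were higher in bipolar cells, against 6.92% of all tested genes, with a median difference of 1.75. Rgs7, a regulator of G protein signalling that speeds the light response, read 1127 and 1301 on the bipolar arrays and 122 and 116 on the amacrine arrays (3.18, SE 0.22, adjusted p = 7.06e-05). Rgs11, which acts beside it, read 248 and 252 on the bipolar arrays and 26.9 and 32 on the amacrine arrays (2.55, adjusted p = 0.000143). Rgs9bp, the membrane anchor R9AP, read 615 and 745 on the bipolar arrays and 78.8 and 48.6 on the amacrine arrays (3.15, adjusted p = 0.000172), and the G protein beta subunit Gnb3 read 607 and 503 on the bipolar arrays and 135 and 76.5 on the amacrine arrays (2.27, adjusted p = 0.00137). All 4 were separated from the amacrine arrays. Rgs7bp was higher by 1.24 (adjusted p = 0.0298) but above the ceiling on 1 bipolar array, at 75.7 and 152. The call for Rgs7bp was lost without amacrine replicate 1 or amacrine replicate 2 (adjusted p = 0.0739 and 0.0946) and when dim probe sets were kept (adjusted p = 0.158).

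The other members were not higher in bipolar cells by the test, or too dim for it. Trpm1, the channel at the end of the cascade, read 25.1 and 25.4 on the bipolar arrays and 22.4 and 26.7 on the amacrine arrays, below background on all 4 arrays and for all 4 of its probe sets. Gpr179, the scaffold that holds the RGS proteins, read 9.4 and 2.1, and the gamma subunit Gng13 read 47.9 and 40.5. Nyx, the gene of nyctalopin, read 101 and 119 on the bipolar arrays and 126 and 126 on the amacrine arrays, just over the ceiling and no higher than on the amacrine arrays. Gnb5 read 334 and 399.6, lower than on both amacrine arrays but not past the test (-0.56, adjusted p = 0.212). Grm6, the receptor gene itself, was not analysed here.

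The glutamate receptor genes differed subunit by subunit. Among AMPA and kainate receptors and their partners, 7 of 11 were above background, and of 10 tested, 3 were higher and 5 lower in bipolar cells (median -0.76). Gria2, the AMPA subunit that limits calcium entry, read 1561 and 1323 on the bipolar arrays and 1607 and 2088 on the amacrine arrays, and did not pass the test. Gria4 read 528 and 735 on the bipolar arrays and 1834 and 1808 on the amacrine arrays (-1.52, adjusted p = 0.00208), and Gria1 read 127 and 343 on the bipolar arrays and 55.7 and 44.7 on the amacrine arrays (1.78, adjusted p = 0.0216). The kainate subunits split in opposite directions, Grik1 being higher as given with type 1 and Grik2 reading 98.7 and 136 on the bipolar arrays and 2277 and 2625 on the amacrine arrays (-4.22, adjusted p = 2.6e-05). Grik3 and Gria3 were also lower than in amacrine cells, with differences of -1.65 and -1.82 (adjusted p = 0.0315 and 0.00301), and read 106 and 32.2 and 32 and 28.6 on the bipolar arrays. Neto1 was higher and Neto2, the related kainate receptor partner, was lower (-1.17, adjusted p = 0.0102). The call for Neto2 was lost without bipolar replicate 1 (adjusted p = 0.0569) and those for Gria1, Grik3 and Neto2 without bipolar replicate 2 (adjusted p = 0.0598, 0.158 and 0.0955). That for Grik3 was lost without amacrine replicate 1 (adjusted p = 0.0951) and those for Gria1 and Grik3 without amacrine replicate 2 (adjusted p = 0.0998 and 0.078). Those for Gria1 and Grik3 were lost when dim probe sets were kept (adjusted p = 0.154 and 0.18).

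NMDA and delta receptor genes were few, with 2 of 7 above background. Grin2b read 375 and 386 on the bipolar arrays and 585 and 594 on the amacrine arrays (-0.61, adjusted p = 0.106). Grid1, the delta-1 subunit, read 417 and 349 on the bipolar arrays and 173 and 88 on the amacrine arrays and was higher in bipolar cells (adjusted p = 0.0152). Of the metabotropic glutamate receptors, Grm8 alone of 6 measured was above background on both arrays, at 101 and 91.8, and it did not pass the test (adjusted p = 0.809). The call for Grid1 was lost without bipolar replicate 1 (adjusted p = 0.0843) and when dim probe sets were kept (adjusted p = 0.105).

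Receptors for the inhibitory input from amacrine cells differed in subunits from those of the amacrine cells themselves. Of 14 GABA receptor genes 6 were above background, a share near that of all genes, and of 11 tested, 6 were higher and 2 lower in bipolar cells (median 1.52). Gabrr1, the rho subunit that forms the slow GABA receptors of bipolar terminals, read 1856 and 1952 on the bipolar arrays and 254 and 56.6 on the amacrine arrays (3.78, SE 0.52, adjusted p = 0.00224). Gabrb1 read 1202 and 1796 on the bipolar arrays and 73.7 and 78.7 on the amacrine arrays (4.01, SE 0.26, adjusted p = 5.05e-05). Gabrb2 read 2343 and 2769.6 on the bipolar arrays and 380.2 and 445 on the amacrine arrays (2.58, SE 0.19, adjusted p = 0.000105). Both beta subunits were thus high in bipolar cells, with no overlap between groups. Among alpha subunits, Gabra4 was higher by 2.04 (adjusted p = 0.00238) and above background on 1 bipolar array, Gabra5 was higher by 1.52 (adjusted p = 0.0494), and Gabra3 was lower (-2.35, adjusted p = 0.000198), at 22.2 and 23.4. Gabrr2, the other rho subunit, read 48.6 and 153, higher than the 8.43 and 5.45 of the amacrine arrays (adjusted p = 0.00907). Gabbr1, of the metabotropic GABA-B receptor, read 1010.5 and 924 and did not pass the test. The call for Gabra5 was lost without bipolar replicate 1 or bipolar replicate 2 (adjusted p = 0.0623 and 0.224). Those for Gabra5 and Gabrr2 were lost without amacrine replicate 2 (adjusted p = 0.149 and 0.0519) and those for Gabra5, Gabrr1 and Gabrr2 when dim probe sets were kept (adjusted p = 0.223, 0.0549 and 0.102). Gabra5 also missed the threshold with cyclic loess scaling, with quantile scaling, with a pseudocount of 1, without the variance trend and with the other choice of probe set (adjusted p = 0.0681, 0.072, 0.0625, 0.0703 and 0.0509).

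Glycine receptors differed in their alpha subunit between the groups. Glra1, the adult-type subunit, read 2079.8 and 1876 on the bipolar arrays and 27.1 and 13.5 on the amacrine arrays (5.80, SE 0.26, adjusted p = 1.59e-05). Glra2 read 25.3 and 41.4 on the bipolar arrays and 1463 and 1393 on the amacrine arrays (-4.89, SE 0.24, adjusted p = 1.93e-05), so each group was bright in 1 of the 2 genes and below background in the other. The common beta subunit Glrb, at 1836 and 2450.3, and the scaffold gephyrin, Gphn, at 1044 and 1116, were above background in both groups and did not pass the test. Glra3 and Glra4 were below background.

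Receptors for modulators were mostly dim, with a pair of exceptions. Of 31 amine, peptide and cannabinoid receptor genes, 6 were above background (19.4%, against 45.8% of all genes). Tacr3 and Drd1 were bright. Drd1, the D1 dopamine receptor through which dopaminergic amacrine cells reach bipolar cells, read 2113 and 1940.3 on the bipolar arrays and 196 and 129 on the amacrine arrays (3.54, SE 0.25, adjusted p = 7.41e-05). Both bipolar arrays exceeded the higher amacrine array by more than 4 times. Htr1d, Vipr2, Sstr4 and Adcyap1r1 lay near the ceiling, between 82.9 and 116, and did not pass the test. The cannabinoid receptor Cnr1 read 12.3 and 19.3 on the bipolar arrays and 191 and 895 on the amacrine arrays (-3.78, adjusted p = 0.00379), but with the gene's other probe set the adjusted p was 0.777. The call for Cnr1 was lost when dim probe sets were kept (adjusted p = 0.0761).

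Of 15 acetylcholine receptor genes 5 were above background. Chrna4 read 995 and 1390.2 on the bipolar arrays and 219 and 157 on the amacrine arrays (2.56, adjusted p = 0.000499), though another bright probe set of the gene had the opposite sign. Chrna7, the subunit of homomeric nicotinic receptors, read 248 and 286 on the bipolar arrays and 69.1 and 79 on the amacrine arrays (1.65, adjusted p = 0.00164), and its groups did not overlap. Chrna3, at 145 and 144, Chrnb2, at 123 and 143, and Chrna6, at 97.9 and 79.3, did not pass the test. Chrna5 was lower in bipolar cells (-1.69, adjusted p = 0.00822) and below background there. The call for Chrna5 was lost when dim probe sets were kept (adjusted p = 0.0852).

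Calcium channel genes included those of the channel known from ribbon terminals. Cacna1f, the pore subunit Cav1.4 of photoreceptor and bipolar ribbon synapses, read 179.7 and 226 on the bipolar arrays and 13.8 and 6.03 on the amacrine arrays (3.09, SE 0.24, adjusted p = 0.000121). Cacna2d4, its accessory subunit, read 379 and 596 on the bipolar arrays and 37.4 and 26.8 on the amacrine arrays (3.36, SE 0.27, adjusted p = 0.000149), and Cacna2d1 was bright as given among the markers. The beta subunit Cacnb2 read 159 and 257 on the bipolar arrays and 65.6 and 61.2 on the amacrine arrays (1.46, adjusted p = 0.00758). These 4 were the members of the list higher in bipolar cells, of 14 tested, and 7 were higher in amacrine cells (median -0.91), among them Cacna1d, which read 245 and 287 on the bipolar arrays and 1012 and 769 on the amacrine arrays (-1.68, adjusted p = 0.00246), and Cacna2d3, which read 1049 and 1287 on the bipolar arrays and 2615 and 2310.0 on the amacrine arrays (-1.07, adjusted p = 0.00394). Cacna1a, the P/Q-type pore, was also lower (-0.92, adjusted p = 0.0161) and still read 858 and 1158. In all, 10 of 16 were above background. The call for Cacna1a was lost without bipolar replicate 1 (adjusted p = 0.107) and that for Cacnb2 without bipolar replicate 2 (adjusted p = 0.0588). That for Cacna1a was lost without amacrine replicate 2 (adjusted p = 0.07) and those for Cacna1a and Cacnb2 when dim probe sets were kept (adjusted p = 0.085 and 0.0709).

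Ribbon synapse genes were largely present, 14 of 18, against 45.8% of all genes. Of 17 tested, 6 were higher in bipolar cells and 1 in amacrine cells (median 0.40), against 6.92% and 6.54% of all tested genes. Ctbp2, which encodes the ribbon protein RIBEYE from a start of its own and a nuclear corepressor, read 4432 and 4571 on the bipolar arrays and 2733 and 2408 on the amacrine arrays (0.81, SE 0.11, adjusted p = 0.00215). Unc13b, the release factor Munc13-2, read 2547 and 3093 on the bipolar arrays and 539.6 and 560.0 on the amacrine arrays (2.32, SE 0.18, adjusted p = 0.000114). Piccolo, Pclo, read 2096 and 2140.5 on the bipolar arrays and 747 and 964 on the amacrine arrays (1.30, adjusted p = 0.00232), and Unc119, a trafficking protein of ribbon synapses, read 1792 and 1793 on the bipolar arrays and 696 and 364 on the amacrine arrays (1.80, adjusted p = 0.00467). The 2 bipolar arrays of each lay above both amacrine arrays. Cplx3, the complexin of ribbon synapses, read 2878 and 3119.7 on the bipolar arrays and 2453 and 2094 on the amacrine arrays and missed the threshold (0.40, adjusted p = 0.0948), and Stx3, the ribbon syntaxin, read 2389.7 and 2708 and did not pass either. Bassoon, Bsn, at 476 and 544, and Rims2, at 905 and 881, did not pass, and Erc2 was lower in bipolar cells (-0.81, adjusted p = 0.0318). Cabp4, the calcium-binding regulator of Cav1.4, was below background at 36.9 and 71.4. The call for Erc2 was lost without bipolar replicate 1 or bipolar replicate 2 (adjusted p = 0.0973 and 0.21). That for Erc2 was lost without amacrine replicate 2 (adjusted p = 0.114) and those for Erc2 and Unc119 when dim probe sets were kept (adjusted p = 0.072 and 0.0628).

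**Figure D3:**
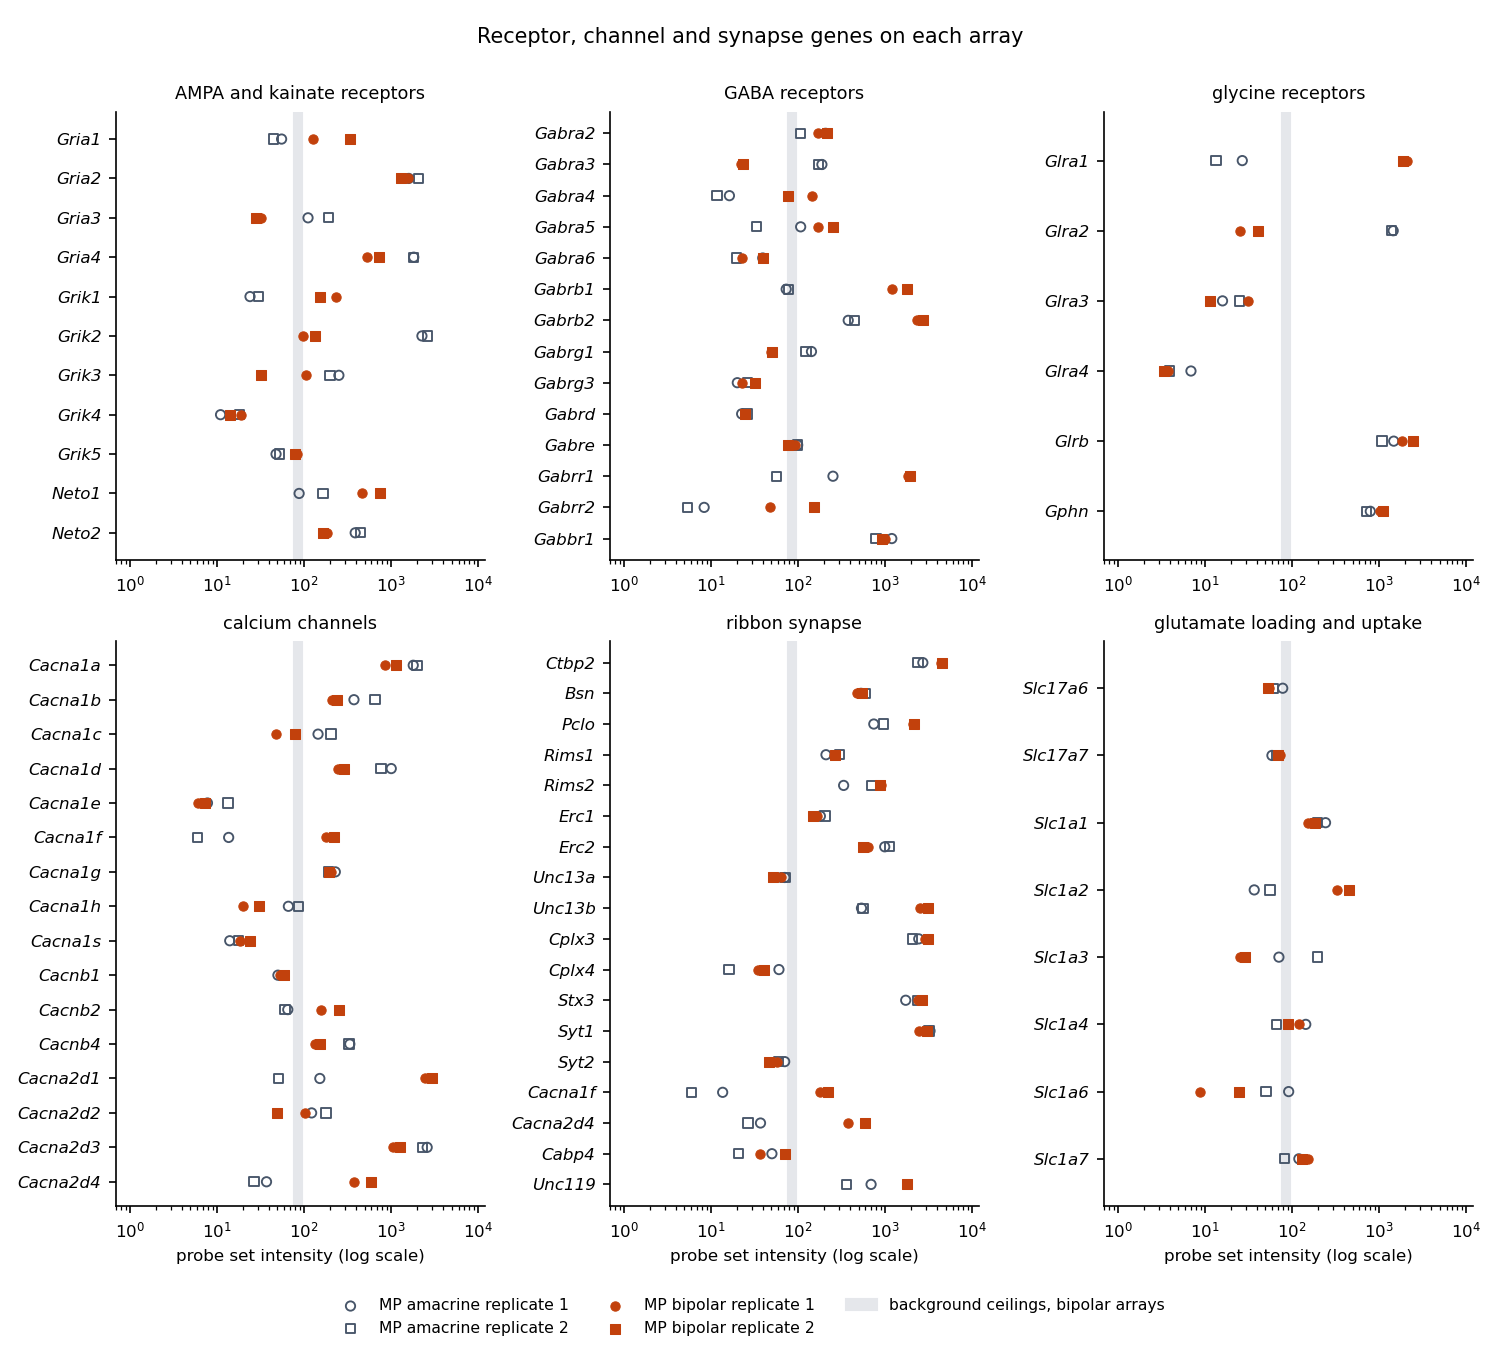
For 6 gene lists each row is a gene and each symbol the probe set intensity on 1 array (log scale), filled for MP bipolar and open for MP amacrine samples, with the background ceilings of the bipolar arrays in grey. Gabrb1, Gabrr1, Glra1, Cacna2d1 and Cacna2d4 have both bipolar symbols right of all amacrine symbols, Glra2 and Grik2 have their brighter symbols in amacrine cells, and Slc17a7 lies left of the band on all 4 arrays.

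General vesicle genes were mostly above background, 19 of 22, against 45.8% of all genes. Of 19 tested, 4 were higher in bipolar cells and 1 in amacrine cells, against 6.92% and 6.54% of all tested genes. Sv2b, a vesicle glycoprotein of ribbon terminals, read 2998 and 3405 on the bipolar arrays and 1611 and 1630.0 on the amacrine arrays (0.97, adjusted p = 0.00204). Syp, synaptophysin, was higher by 1.07 (adjusted p = 0.0331), and Nsf and Napb, which take SNARE complexes apart, by 1.41 and 0.93 (adjusted p = 0.00636 and 0.00783). Snap25, at 2867 and 2950.0, Rab3a, at 2843 and 2944, and Vamp2, at 1676 and 1782, were bright and did not pass. Rab3c was the member that was lower (-2.11, adjusted p = 0.000163). The calls for Syp, Nsf and Napb were lost without bipolar replicate 2 (adjusted p = 0.266, 0.0535 and 0.098) and that for Syp without amacrine replicate 2 (adjusted p = 0.125). Those for Syp and Nsf were lost when dim probe sets were kept (adjusted p = 0.128 and 0.0627).

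The transporter that fills bipolar vesicles with glutamate was below background. Slc17a7, VGLUT1, read 72.8 and 68.8 on the bipolar arrays and 59.3 and 67.2 on the amacrine arrays, below the ceiling on all 4 arrays, and Slc17a6 read 54.5 and 53. Glutamate uptake genes were above background for 4 of 8 list members in all, and Slc1a2, GLT-1, which cone bipolar cells express, read 333 and 454 on the bipolar arrays and 37.1 and 56.4 on the amacrine arrays (2.71, SE 0.26, adjusted p = 0.000333). Slc1a7, the transporter of bipolar terminals, read 156 and 132 on the bipolar arrays and 121 and 83.2 on the amacrine arrays and did not pass (0.45, adjusted p = 0.304). Of 14 genes for making or loading GABA, glycine, acetylcholine or monoamines, 2 were above background. Slc32a1, the inhibitory vesicular transporter, read 101 and 99.98 on the bipolar arrays and 1292 and 1025 on the amacrine arrays (-3.33, adjusted p = 7.06e-05), just over the ceiling in bipolar cells, and Gad2 read 131 and 190.5 on the bipolar arrays and 169 and 216 on the amacrine arrays and did not pass the test.

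Ion transport genes were above background for 10 of 15, against 45.8% of all genes. Of 14 tested, 7 were higher in bipolar cells and 1 in amacrine cells (median 0.52), against 6.92% and 6.54% of all tested genes. Slc12a5, KCC2, the potassium-chloride cotransporter that sets a low internal chloride, read 4622 and 5542 on the bipolar arrays and 3485 and 3159 on the amacrine arrays (0.61, adjusted p = 0.0114), and Slc12a2, NKCC1, which loads chloride, read 1428 and 1819.7 and did not pass. The calcium pumps Atp2b1, at 1239 and 1459.6 on the bipolar arrays and 365 and 394 on the amacrine arrays (1.78, adjusted p = 0.000843), and Atp2b3, at 329.8 and 503 on the bipolar arrays and 48.5 and 10.8 on the amacrine arrays (3.35, adjusted p = 0.00117), were higher, as were the sodium-calcium exchangers Slc8a3 and Slc8a1, by 1.40 and 1.64 (adjusted p = 0.00112 and 0.00511). These 4 proteins move calcium out of the cell. Of 13 gap junction genes 3 were above background. Gjd2, connexin 36, the connexin of cone bipolar cells coupled to AII amacrine cells, read 691 and 935 on the bipolar arrays and 445 and 372 on the amacrine arrays (0.95, adjusted p = 0.0348), Panx1 was higher by 0.83 (adjusted p = 0.0428), and Gjc1, connexin 45, read 595 and 521 and did not pass the test. The calls for Gjd2 and Panx1 were lost without bipolar replicate 1 (adjusted p = 0.0561 and 0.156) and those for Slc12a5, Gjd2 and Panx1 without bipolar replicate 2 (adjusted p = 0.152, 0.284 and 0.29). Those for Gjd2 and Panx1 were lost without amacrine replicate 2 (adjusted p = 0.119 and 0.142) and those for Slc12a5, Slc8a1, Gjd2 and Panx1 when dim probe sets were kept (adjusted p = 0.0984, 0.0517, 0.106 and 0.124). Slc12a5 also missed the threshold without the variance trend (adjusted p = 0.109). Panx1 also missed the threshold with cyclic loess scaling, with quantile scaling and with a filter at the 75th percentile (adjusted p = 0.054, 0.0545 and 0.0596).

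Potassium channels formed another set with clear members. Of 38 potassium and HCN genes 14 were above background, against 45.8% of all genes. Of 24 tested, 5 were higher and 7 lower in bipolar cells (median 0.03), against 6.92% and 6.54% of all tested genes. Kcnma1, the large-conductance calcium-activated BK channel, read 3710.2 and 3931 on the bipolar arrays and 365 and 357 on the amacrine arrays (3.35, SE 0.17, adjusted p = 1.85e-05). Kcna5, Kv1.5, read 1179 and 1251 on the bipolar arrays and 61.4 and 52.6 on the amacrine arrays (4.08, SE 0.22, adjusted p = 2.37e-05), and Kcnk3, the leak channel TASK-1, read 648 and 775 on the bipolar arrays and 38.6 and 28.9 on the amacrine arrays (3.87, SE 0.23, adjusted p = 3.48e-05). Both stood below the ceiling on the amacrine arrays. Hcn3, a hyperpolarisation-activated channel of cone bipolar cells, read 736 and 794 on the bipolar arrays and 259 and 138 on the amacrine arrays (1.92, adjusted p = 0.00406), and Kcnj9 was higher by 1.66 (adjusted p = 0.0185). Kcnd3, the A-type channel Kv4.3, at 3279.6 and 3254, and Kcnmb4, a BK partner, at 1973 and 2166, were bright and did not pass the test. Kcna1, at 7.24 and 7.16 on the bipolar arrays and 750.4 and 785 on the amacrine arrays (-5.08, adjusted p = 1.29e-05), and Kcnj3, the G protein-gated channel GIRK1, at 48.5 and 35 on the bipolar arrays and 1541 and 1554 on the amacrine arrays (-4.77, adjusted p = 1.85e-05), were high in amacrine cells instead, although for Kcnj3 the other choice of probe set gave an adjusted p of 0.519. The call for Kcnj9 was lost without bipolar replicate 2 (adjusted p = 0.092) and those for Kcnj9 and Hcn3 when dim probe sets were kept (adjusted p = 0.131 and 0.0513).

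The brightest voltage-gated sodium channel genes did not pass the test. Scn3a read 2330.4 and 2019.8 on the bipolar arrays and 2056 and 2089.8 on the amacrine arrays, Scn1a 1083 and 1218 on the bipolar arrays and 1179.5 and 1397 on the amacrine arrays and Scn8a 444 and 578 on the bipolar arrays and 574 and 782 on the amacrine arrays, and none of the 3 passed the test. Of 11 sodium channel genes 5 were above background, and 2 of 7 tested, Scn2a and Scn3b, were lower than in amacrine cells, with differences of -3.13 and -2.65 (adjusted p = 0.00185 and 0.00028).

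Adhesion genes differed between the groups in both directions. Of 29 protocadherins, cadherins and calsyntenins 13 were above background, a share like that of all genes, but 11 of 22 tested were higher in bipolar cells, 6 were higher in amacrine cells and 5 stood at least 4 times above the amacrine level (median 0.66). After Pcdh17 and Pcdh10, Pcdh9 read 2156 and 2288 on the bipolar arrays and 236 and 165 on the amacrine arrays (3.39, SE 0.23, adjusted p = 6.61e-05). Clstn2, a calsyntenin of the postsynaptic membrane, read 1563 and 1894 on the bipolar arrays and 65.5 and 67.3 on the amacrine arrays (4.40, SE 0.22, adjusted p = 2.04e-05). Cdh9, a type II cadherin that guides bipolar axons to their layer in other bipolar types, read 501 and 496 on the bipolar arrays and 73.9 and 64 on the amacrine arrays (2.60, adjusted p = 0.000162). Their groups did not overlap. Cdh2, N-cadherin, was bright in both groups, at 2128 and 2012 in bipolar cells, and its other bright probe set had the opposite sign. Pcdh8, at 106 and 129.9, Pcdh11x, at 45 and 11.6, and Pcdh19, at 100.1 and 73.1, were lower than in amacrine cells, with differences of -3.92, -3.24 and -3.13 (adjusted p = 4.79e-05, 0.00106 and 0.000118), and with another bright Pcdh19 probe set the difference turned to 0.11 (adjusted p = 0.822).

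Of 46 lamina and guidance genes 23 were above background, and of 37 tested, 11 were higher and 6 lower in bipolar cells (median 0.10). Slit2 was described above, and Slit1, a ligand of the same family, read 943 and 1198 on the bipolar arrays and 102 and 10.4 on the amacrine arrays (4.27, SE 0.59, adjusted p = 0.00224), with amacrine arrays that differed widely. Their receptors Robo1, at 57.6 and 25, and Robo2, at 60.4 and 62.4, were below background in bipolar cells. Slitrk6, a leucine-rich repeat protein, read 1235 and 1271 on the bipolar arrays and 34.7 and 13.3 on the amacrine arrays (5.04, SE 0.29, adjusted p = 3.03e-05). Cntn1, contactin 1, read 2784 and 3121 on the bipolar arrays and 309 and 279 on the amacrine arrays (3.26, SE 0.19, adjusted p = 2.91e-05), and Dscaml1, an adhesion protein of the rod pathway in the inner retina, read 3598 and 3900.1 on the bipolar arrays and 1542 and 1494 on the amacrine arrays (1.29, adjusted p = 0.000349). Its relative Dscam went the other way, at 241 and 154 on the bipolar arrays and 790.3 and 803 on the amacrine arrays (-1.96, adjusted p = 0.00181). Dcc, the netrin receptor, at 2917 and 2909, was bright in both groups, and Unc5d, another netrin receptor, was higher by 1.29 (adjusted p = 0.0019). The call for Slit1 was lost when dim probe sets were kept (adjusted p = 0.0571).

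The other genes that stood at least 4 times above the amacrine level and had the highest bipolar signals belonged to no single family. They were chosen by that size, so their values are a description. Zfhx3, a homeodomain and zinc finger factor related to Zfhx4, read 4629.6 and 4654 on the bipolar arrays and 438 and 546 on the amacrine arrays. Hs3st2, a sulfotransferase that modifies heparan sulfate, read 2539.7 and 3367 on the bipolar arrays and 40.9 and 19 on the amacrine arrays, the amacrine values lying below background. Tafa3, a secreted chemokine-like protein, read 4065 and 4901 on the bipolar arrays and 250.2 and 127 on the amacrine arrays. Of these 3 Hs3st2 had the widest gap between its groups, 6.04 on the log2 scale. Mylk, the myosin light chain kinase, read 2816 and 3481 on the bipolar arrays and 117 and 80.5 on the amacrine arrays, and Otor, otoraplin, known from the cochlea, read 2704 and 2782 on the bipolar arrays and 126 and 51.6 on the amacrine arrays. Rnd3, a small GTPase-related protein that acts on the actin cytoskeleton, read 2860.2 and 2943 on the bipolar arrays and 307 and 355 on the amacrine arrays. Cyth1, an exchange factor for Arf proteins, read 3034 and 3382 on the bipolar arrays and 709 and 615 on the amacrine arrays. Tmcc3 and Abhd3 read 2528 and 2585 and 2212 and 2279. All 109 genes of this kind were also called higher in bipolar cells by limma, which used the same arrays, so this adds no separate evidence. For 21 of the 109 both amacrine arrays lay below the ceiling.

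Genes of the gate and of other cells describe what the sort collected. The groups were divided by VC1.1 itself, and the lists were chosen with earlier results of these data known. These values therefore cannot test the sort. VC1.1 recognises the HNK-1 carbohydrate, and B3gat1, which encodes an enzyme that makes it, read 729.6 and 804 on the bipolar arrays and 3011 and 2989 on the amacrine arrays (-1.95, SE 0.15, adjusted p = 0.000131), lower in the VC1.1- cells and still above background there. Of 14 amacrine markers 5 were above background on the bipolar arrays and 12 on the amacrine arrays, against 45.8% and 47.4% of all genes. Of 12 tested, 10 were lower in bipolar cells (median -3.48), against 6.54% of all tested genes. The summed intensity of the 14 markers was 819 and 916 on the bipolar arrays and 14621 and 15510.0 on the amacrine arrays. Pax6, at 32.3 and 44.9, Neurod6, at 9.55 and 5.99, Tfap2b, at 22.6 and 13.6, Tfap2c, at 6.05 and 2.83, Ebf1, at 39.2 and 33.2, and Ebf3, at 18.7 and 15.9, were below background in bipolar cells, while Meis2, at 125 and 219, Gad2, Slc32a1, Tfap2a, at 111 and 79.6, and Stx1a, at 98.2 and 85.5, were over it. The call for Tfap2a was lost without bipolar replicate 1, bipolar replicate 2 or amacrine replicate 2 (adjusted p = 0.0697, 0.251 and 0.136) and when dim probe sets were kept (adjusted p = 0.162).

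Photoreceptor genes were the main signal of another cell class. Of 14 genes of rods or shared by photoreceptors 11 were above background on the bipolar arrays and 11 on the amacrine arrays, with summed intensities of 9858 and 11417 in bipolar and 13183 and 7995 in amacrine samples. Sag, rod arrestin, read 2422 and 3252 on the bipolar arrays and 3336 and 2462 on the amacrine arrays, the transducin subunit gene Gngt1 3193 and 3908 on the bipolar arrays and 4138 and 1983 on the amacrine arrays, and the rod factor Nrl 891 and 850.2 on the bipolar arrays and 2028 and 1172 on the amacrine arrays. The groups overlapped for Sag and Gngt1 and did not for Nrl, which was lower in bipolar cells without passing the test, and 1 of 11 tested, Crx, was higher in bipolar cells and 1, Rp1, in amacrine cells. The 2 genes Gnat1 and Pde6a, which rods need later, were at 24.9 and 120.0 and 17.9 and 29.5. Of 10 cone genes 6 were above background and summed to 1747 and 1552 in bipolar and 1652 and 1307 in amacrine samples, with Opn1sw at 419.6 and 372 on the bipolar arrays and 215 and 49.9 on the amacrine arrays (1.74, adjusted p = 0.0621). The part of photoreceptor RNA in the Crx, Unc119, Cacna1f, Cacna2d4 and Ctbp2 values, which photoreceptors share, was not tested. The median difference of the 11 tested photoreceptor genes was -0.11. The call for Rp1 was lost without bipolar replicate 1, bipolar replicate 2, amacrine replicate 1 or amacrine replicate 2 (adjusted p = 0.286, 0.184, 0.0593 and 0.104) and when dim probe sets were kept (adjusted p = 0.0939).

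Markers of the remaining cell classes were mostly below background. Of 12 Müller glia markers 3 were above background in bipolar cells, Glul, at 1594 and 1937 on the bipolar arrays and 2103 and 1870.3 on the amacrine arrays, Clu, at 261 and 323 on the bipolar arrays and 188 and 128 on the amacrine arrays, and Vim, at 108 and 233 on the bipolar arrays and 1672 and 1518 on the amacrine arrays (-3.19, adjusted p = 0.000486), and the list summed to 2245 and 2825 in bipolar and 4688 and 4368 in amacrine samples. Rlbp1, Slc1a3 and Aqp4 were below background. Of 11 ganglion cell markers Thy1 alone was above background, at 2462 and 3415 on the bipolar arrays and 806 and 1455 on the amacrine arrays (1.41, adjusted p = 0.0131), and Nefl, Nefm, Pou4f1, Rbpms and Sncg were below. Of 6 horizontal cell genes 3 were above, Tnr, at 1419 and 1777, Septin4, at 561 and 617, and Onecut2, at 263 and 172, while Lhx1, Onecut1 and Calb1 were below. Of 18 vascular, blood, microglial and astrocyte genes Csf1r, at 256 and 197, and C1qb, at 186 and 143, were above. Ctss, a protease of microglia, differed between the bipolar replicates, at 1003 and 2.27, and between the amacrine replicates, at 567 and 2665. The call for Thy1 was lost without bipolar replicate 2 (adjusted p = 0.0816) and when dim probe sets were kept (adjusted p = 0.12).

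**Figure D4:**
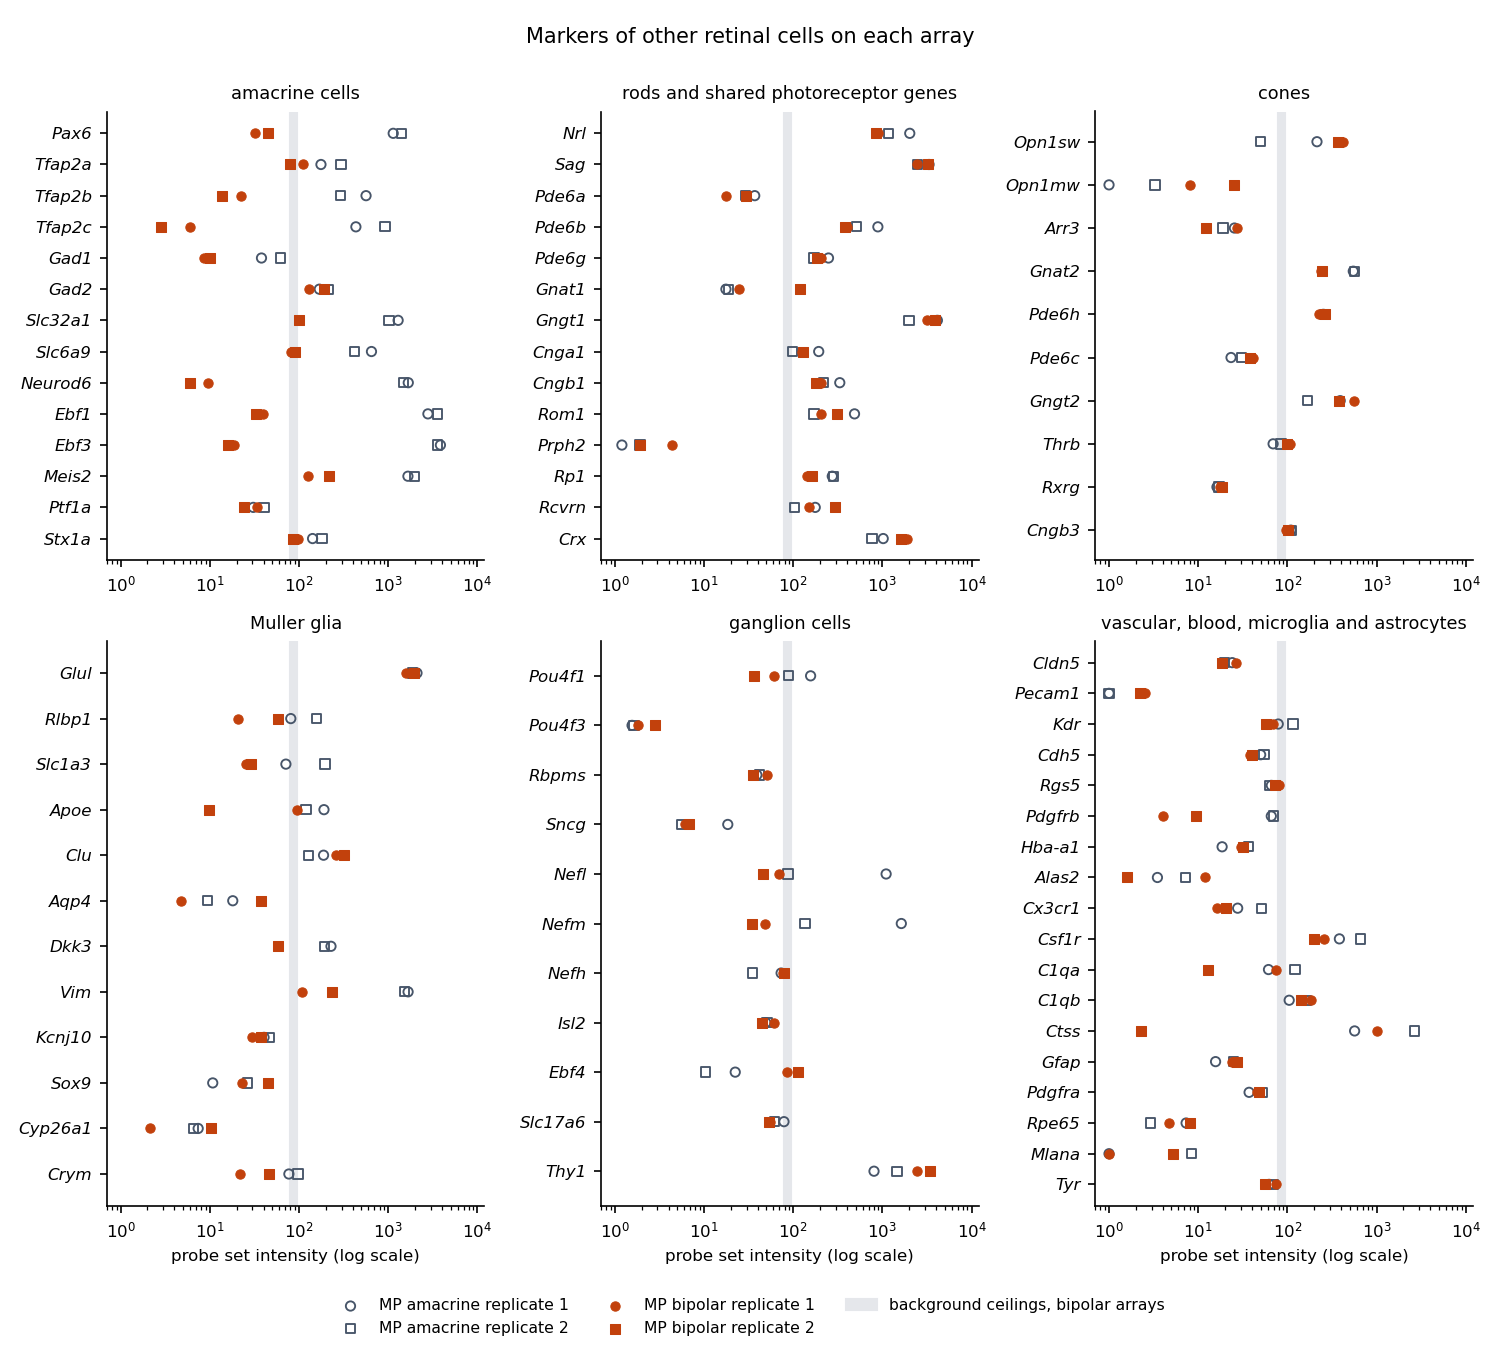
Markers of 6 other cell classes are shown with a symbol per array for the probe set intensity (log scale), filled for MP bipolar and open for MP amacrine samples, and the background ceilings of the bipolar arrays in grey. Amacrine genes such as Pax6, Ebf1 and Neurod6 lie left of the band in bipolar cells, rod genes such as Sag, Gngt1 and Nrl lie right of it in both groups, and Ctss is split between the bipolar replicates.

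The state of the cells was read from 2 further lists. Of 12 genes of neurite growth and immaturity 7 were above background in bipolar cells and 10 in amacrine cells, and of 11 tested 4 were lower in bipolar cells (median -0.35). Sox11, an early neuronal factor, read 64.6 and 48.6 on the bipolar arrays and 2229.7 and 2339 on the amacrine arrays (-4.99, SE 0.23, adjusted p = 1.7e-05), and Stmn2, a growth cone protein, read 44 and 27.9 on the bipolar arrays and 941 and 431 on the amacrine arrays (-3.67, adjusted p = 0.0004). Both were below background in bipolar cells and bright in amacrine cells, and with the other choice of probe set the adjusted p of Sox11 was 0.463. Sox4 and Tubb2b were lower, with differences of -0.47 and -0.65 (adjusted p = 0.0141 and 0.00714) but read 3735 and 3502 and 3272 and 2768, and Stmn1, at 4876 and 5015, did not pass the test. Of 9 progenitor and cell cycle genes 2 were above background, Pcna, at 464 and 576, and Ccnd1, at 242 and 188, and Mki67, Top2a and Cdk1 were below. Of 12 immediate early genes, which rise within minutes of cell stress or dissociation, 6 were above background and summed to 5366 and 3454 in bipolar and 5876 and 8546 in amacrine samples. Fos read 1131 and 436 on the bipolar arrays and 1628 and 2894 on the amacrine arrays (-1.60, adjusted p = 0.0465), so the bipolar replicates differed from each other, as they did for Egr1, at 2002 and 1157. The part of dissociation in any other value was not tested. The call for Sox4 was lost without bipolar replicate 1 (adjusted p = 0.0717) and those for Sox4, Tubb2b and Fos without bipolar replicate 2 (adjusted p = 0.156, 0.0793 and 0.155). That for Fos was lost without amacrine replicate 2 (adjusted p = 0.219) and those for Sox4, Tubb2b and Fos when dim probe sets were kept (adjusted p = 0.0918, 0.0723 and 0.223). Sox4 and Tubb2b also missed the threshold without the variance trend (adjusted p = 0.177 and 0.0828). Fos also missed the threshold with cyclic loess scaling, with quantile scaling, with a pseudocount of 1 and without the variance trend (adjusted p = 0.0552, 0.0595, 0.0534 and 0.0761).

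**Figure D5:**
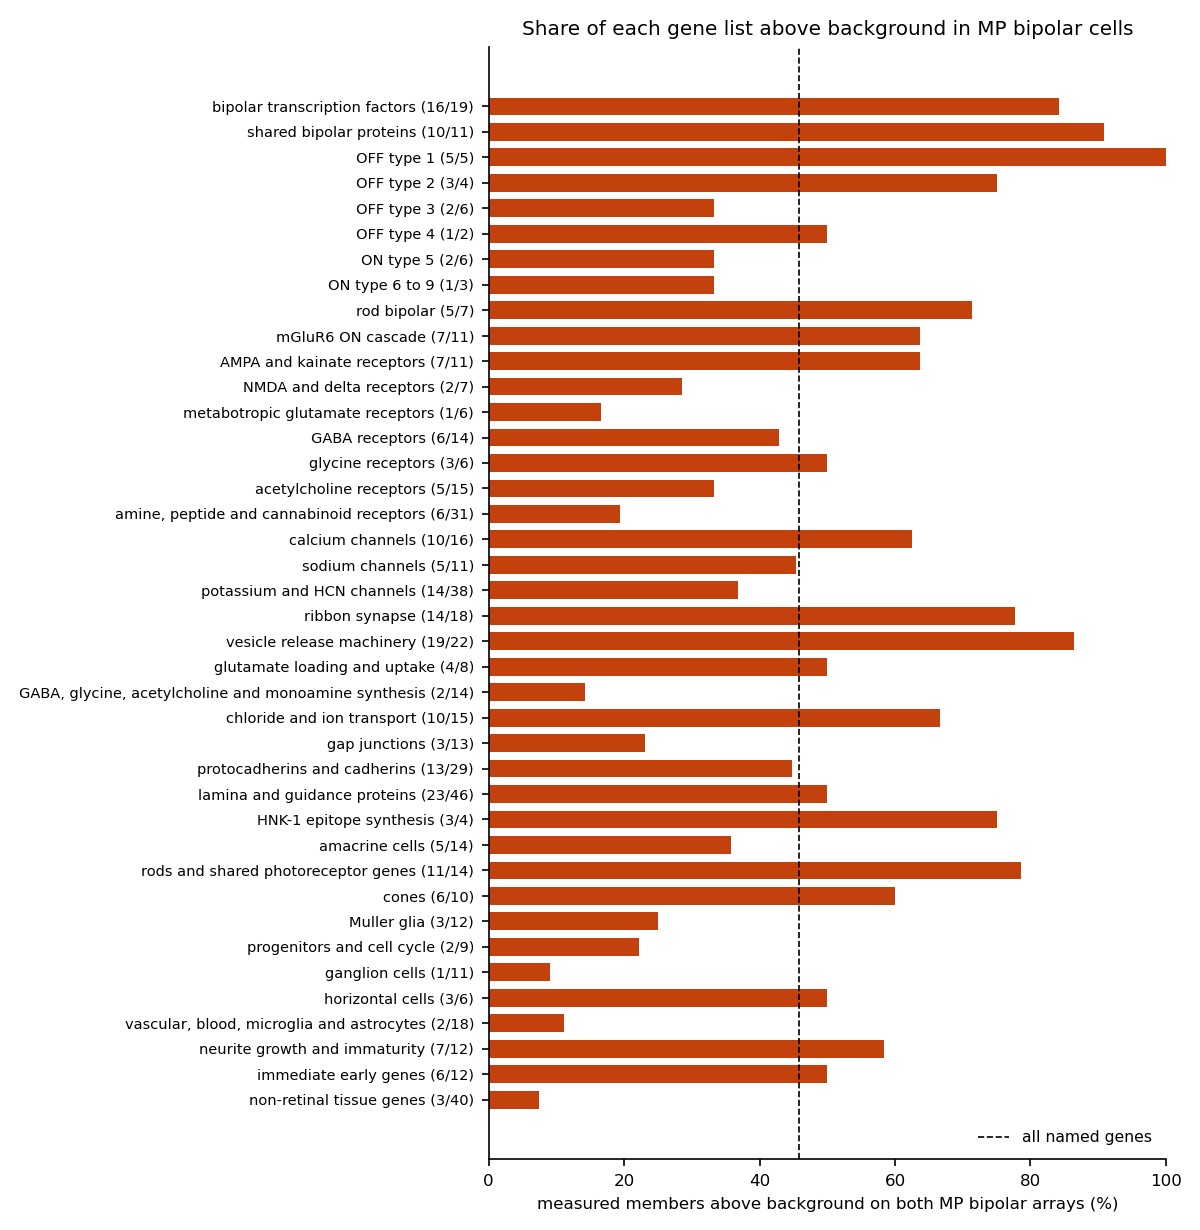
Bars give, for each gene list, the percentage of measured members above background on both MP bipolar arrays, with the counts in brackets, and the dashed line marks the 45.8% of all named genes. Among the lists drawn, the OFF type 1, shared bipolar protein, vesicle release and transcription factor lists reach furthest above the line, and the ganglion cell, vascular and non-retinal tissue lists lie furthest below it.

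Read against that line, 3 of 40 genes of non-retinal tissues were above background (7.5%), namely Krt10, Slc34a1 and Prm1, the share of genes typical of other tissues that passed the rule. Lists whose share lay near the line, such as the sodium channels with 5 of 11, the GABA receptors with 6 of 14 and the cadherins with 13 of 29, had an expressed share close to that of all genes. The median differences given for lists are relative to 0.03 for all tested genes, a value that lay between -0.01 and 0.08 under the other scalings, filters and replicate sets.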

How the data were processed

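RNA of 4 sorted samples, 2 of MP bipolar and 2 of MP amacrine cells, was measured on Affymetrix arrays, and each sample was grouped by its title. The table the authors deposited gives a linear intensity for each of 45101 probe sets on each array. The authors' summary, background correction and scaling of these intensities are not given in the sources used here, so the values were used as deposited. Per the labels' protocols, RNA was isolated with the PicoPure kit and amplified and biotin-labelled in 2 rounds with MessageAmp II, which favours 3-prime ends.

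Setting aside 64 control probe sets left 45037, of which 34945 have 1 gene symbol in the platform annotation and could be named, 932 have several symbols and 9160 have no symbol. This gave 18193 genes, of which 18032 were found in a RefSeq table and 0 symbols changed. Each gene was represented by its probe set of highest average log2 intensity over the arrays. The background ceiling of an array was the 95th percentile of 83 chemosensory receptor probe sets. Groups were compared by a two-sided moderated test in limma 3.58.1 (R 4.3.3, eBayes with trend) on log2(intensity + 16), with Benjamini-Hochberg adjustment over 11583 genes above the array median on at least 2 of 4 arrays and a threshold of 0.05. The small number of arrays, 2 per group, limits the precision. The p-values measure the spread between the replicate arrays of a group, moderated over all tested genes. In that spread litter, sort, amplification and array cannot be told apart. Alternatives changed the ceiling, scaling, pseudocount, filter, probe set, variance moderation, fold and replicates, and added the replicate number as a block.

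The genes and gene lists were chosen with earlier results of these data known. The text names the 20 brightest genes by the lower bipolar intensity, leaving out ribosomal, mitochondrial and predicted genes, and the 20 brightest among those at least 4 times above the amacrine level. It names the members of the marker, transcription factor, bipolar type and mGluR6 lists. Of each other list it takes names among up to 6 members above background and up to 4 called members, or up to 5 members above background for other cell types. Bsn, Rims2, Erc2, Cacnb2, Kcnj9, Cdh9, Dscam, Rp1 and the members below background on at least 1 bipolar array that the rule does not cover were named after their values were seen. List genes that no single-gene probe set represents were not analysed here.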

Additional observations from a re-analysis of the deposited data

Results flagged for a closer look

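Probe sets without a single gene name lay outside the comparisons above. Of 10092 such probe sets, 2437 (24.1%) were above the background ceiling on both MP bipolar arrays, and 35 (0.347%) stood at least 4 times above the amacrine level, against 0.599% of the named genes. They are given as a count only, because the annotation used here names no gene or several genes for them. No group held the 4 or more samples that a search for single outlying samples would need.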

How the results depend on the processing

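The count of genes above background, 8333, lay between 7693 and 10649 under the other ceilings, quantile scaling and the other choice of probe set, and at 8497 and 9115 on a single bipolar array. The count at least 4 times above the amacrine level, 109, lay between 90 and 140 under those alternatives and between 120 and 157 with a replicate left out, and a limit of 2 times gave 360. Without the filter on dim probe sets limma called 385 genes higher and 400 lower in MP bipolar cells, against 801 and 758, over more genes tested. With a replicate left out these counts ranged from 313 to 1137 and from 420 to 533, the lone array of a group being assumed to vary like the other group. Other scalings, pseudocounts, filters, probe sets and moderation gave 696 to 843 and 570 to 787. Same-numbered samples deviated from their group means with a correlation of -0.04 over 11583 genes. This value cannot decide whether the replicate numbers pair the samples, as each group holds 2 arrays. A fit with the replicate number as a block gave 1016 and 916 calls. Some genes bright in a single group, such as Fezf2, Glra1 and Neurod6, fell under the filter with a replicate of that group left out. They have no value there. Of 2147 alternative values for 174 called list members and bright genes 1968 stayed past the threshold, and 108 genes did so wherever tested. The 176 values that did not came from 64 genes, 56 of them without the filter and 46 with a replicate left out, 33 of these without bipolar replicate 2. With the other choice of probe set 3 changed sign, Amelx to 0.049, Kcnd2 to 0.29 and Pcdh19 to 0.11, none past the threshold, and the cause was not tested. Under the other ceilings the OFF type 4 list had 0 to 1 members above background. The offset planned for values already in log2 was not used, as these are linear. Dim probe sets limit what can be said of the types whose markers lay below background.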

Other observations

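Some of the 109 genes at least 4 times above the amacrine level belong to none of the lists above, and the following were picked for naming after their values were seen. Secreted and matrix proteins were among them. Postn, periostin, read 691 and 709 on the bipolar arrays and 2.88 and 4.68 on the amacrine arrays. Mmp2, a matrix metalloproteinase, read 1458 and 1871 on the bipolar arrays and 79.7 and 81.4 on the amacrine arrays, and the growth factor Igf1 1570.3 and 1468 on the bipolar arrays and 108 and 97.6 on the amacrine arrays. Sostdc1, an inhibitor of BMP and Wnt signals, read 761 and 642 on the bipolar arrays and 62.7 and 17.6 on the amacrine arrays, and Nxph1, a neurexin ligand, 786 and 506 on the bipolar arrays and 29.5 and 41.8 on the amacrine arrays. For each of the 5 the bipolar arrays lay far above both amacrine arrays.

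Slco4c1, an organic anion transporter, read 2004 and 1814 on the bipolar arrays and 38.5 and 31.4 on the amacrine arrays, and Tnnc1, the troponin C of slow and cardiac muscle, 1113 and 1439 on the bipolar arrays and 34.9 and 39.4 on the amacrine arrays. The Eph receptor genes Epha3, at 961 and 1172, Epha5, at 1934 and 2359.8, and Epha7, at 2195 and 1749, were of this kind, against 55.6 and 33.9, 192 and 216 and 249 and 217 on the amacrine arrays. So was Unc13c, Munc13-3, a second release factor beside Unc13b, at 1872 and 1956 on the bipolar arrays and 209.7 and 116 on the amacrine arrays, and Otx2os1, a transcript opposite to Otx2, at 1322 and 1391 on the bipolar arrays and 138 and 123 on the amacrine arrays. Whether probes for Otx2os1 separate it from other transcripts of that locus was not tested. Zfp521, a zinc finger factor, read 1786 and 1883 on the bipolar arrays and 97.7 and 34.5 on the amacrine arrays, and Ppef2, a phosphatase of photoreceptors, 1476 and 1569.9 on the bipolar arrays and 272 and 115 on the amacrine arrays.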
